A study of Homo sapiens with 8 samples.

Results

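The RNA levels of 56 genes of the primary cilium and of the Hedgehog pathway were followed in A375, a human melanoma cell line, with and without serum. The genes were chosen by symbol, and all 56 were found among the 58051 genes of the deposited counts. They were described in 7 groups by role. The groups were 11 genes of the intraflagellar transport complex IFT-B, 5 of IFT-A, 5 ciliary motors, 11 of the BBSome with its chaperonins and ARL GTPases, 4 of the basal body and ciliary cap, 14 of the transition zone and inversin compartment, and 6 of Hedgehog signaling.

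RNA depleted of ribosomal RNA was sequenced from 4 wild-type A375 lines, named WT1, WT2, WT3 and WT4. Each line gave 1 library after 12 h in DMEM with 10% fetal bovine serum (FBS), called serum here, and 1 after 12 h in DMEM with no FBS, called serum-free. Each condition therefore had 4 libraries. The study's methods describe single-cell colonies for its knockout lines and do not say how the 4 wild-type lines were obtained. The WT4 counts were deposited under a different name, so this line is WT4 by its labels alone. Nothing in the labels tells separate cultures of 1 line apart. The p-values of the fits on condition alone are therefore set only against the spread between these lines. Those of the fits that include the line are set only against how unevenly these lines responded to serum withdrawal.

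The primary cilium is a single antenna built on the mother centriole of a cell that has left or paused its division cycle. Kinesin motors and IFT-B carry cargo to its tip, dynein and IFT-A bring it back, the BBSome moves membrane proteins, and the transition zone acts as a gate at its base. Removing serum is the usual way to make cultured cells grow a cilium. In vertebrates the Hedgehog receptor PTCH1 and the transducer SMO pass through this organelle, where SUFU and KIF7 control the processing of the GLI transcription factors. *PTCH1* and *GLI1* are themselves transcribed in response to the pathway in many cell types. RFX transcription factors bind a sequence called the X-box in front of many ciliary genes.

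Promoter sequence of 5 members is shown because the X-box and the GLI site are the elements these genes are best known for. RefSeq starts on GRCh38.p14 gave 61 promoters for 49 members, and the 250 bases before each start were searched on both strands. The X-box was searched as GTTNCC, a gap of 0 to 3 bases, and GGNAAC. A relaxed form, which includes the first, allowed GTNNCC in the first place or GGNNAC in the second. The GLI site was searched as GACCACCCA and a FOXO motif as GTAAACA. Capitals mark the match. The first 2 sequences are of *ARL6* and *TCTN3*, the only members with the X-box, and the next 2 of *IFT74* and *TMEM231*, members higher without serum with the relaxed form. The last is of *PTCH1* with the GLI site, read on the opposite strand.
ARL6 (chr3:97764674-97764757, plus strand): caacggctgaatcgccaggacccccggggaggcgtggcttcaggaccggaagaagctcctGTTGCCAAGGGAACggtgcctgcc
TCTN3 (chr10:95694070-95694177, minus strand): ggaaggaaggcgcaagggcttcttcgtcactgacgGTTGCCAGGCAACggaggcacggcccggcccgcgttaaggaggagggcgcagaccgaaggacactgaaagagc
IFT74 (chr9:26956324-26956411, plus strand): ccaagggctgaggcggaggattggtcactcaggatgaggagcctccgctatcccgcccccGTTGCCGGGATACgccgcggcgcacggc
TMEM231 (chr16:75556253-75556352, minus strand): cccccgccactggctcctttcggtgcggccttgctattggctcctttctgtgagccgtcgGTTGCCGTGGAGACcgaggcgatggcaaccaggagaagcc
PTCH1 (chr9:95509370-95509498, minus strand): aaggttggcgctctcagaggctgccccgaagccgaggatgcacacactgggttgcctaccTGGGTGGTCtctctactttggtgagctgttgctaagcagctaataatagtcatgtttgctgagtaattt

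The match ended 10 bases before the start in *ARL6*, 202 in *TCTN3*, 15 in *IFT74*, 26 in *TMEM231* and 163 in *PTCH1*. Some of these are alternative starts within the gene, 9302 bases from its outermost start in *IFT74*, 7705 in *PTCH1*, 237 in *ARL6* and 34 in *TMEM231*, and which starts A375 cells use was not measured. The X-box stood in 3.28% of the member promoters and in 0.655% of all 35116 promoters. The relaxed form stood in 11.5% of the member promoters, in *AHI1*, *ARL6*, *IFT57*, *IFT74*, *TCTN3* and *TMEM231*, and in 2.08% of all. Of these 6 genes, 2 were higher without serum, 1 was lower and 3 were not called. The GLI site was matched in *PTCH1* and *TMEM216*, which is 3.28% of the member promoters against 0.199% of all. The FOXO motif was matched in *PTCH1* alone, 1.64% of the member promoters against 2.98% of all. These are matches of letters, not measured binding.

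Between 29759279 and 73341551 reads per library were counted on genes. Levels are given as counts per 1000000 counted reads (CPM), scaled between libraries by the TMM method. The serum libraries of WT1 and WT2 stood apart in that 22.7% and 16.8% of their reads were aligned to several places, against 5.73% to 10.1% in the other 6 libraries. Of the 10 melanocyte and melanoma markers 8 were tested and 2 were called between conditions. *MITF* went from 40.2 ± 3.89 to 33.1 ± 2.58 CPM (log2FC -0.28, edgeR adjusted p = 0.0496, or 0.189 with a correction for GC content), and *S100A1* from 3.02 ± 0.0791 to 5.42 ± 0.942 CPM (log2FC 0.84, edgeR adjusted p = 0.00605). *PAX3* was at 16.6 to 25.9 CPM, while *PMEL* stayed at or under 0.943 CPM. No read was counted for *SOX10* in any library, which at 3 counts allows up to 0.101 CPM in the shallowest one, by counting error alone. Its exons overlap *POLR2F* on the opposite strand over 5.39% of their length, and the strand setting of the counts is not known. The immune markers *PTPRC* and *CD3E* reached at most 0.0514 and 0.0265 CPM. The summed fibroblast markers *COL1A1*, *DCN* and *LUM* lay at 5.42 to 9.36 CPM with serum and 5.86 to 8.53 CPM without, and the epithelial markers *EPCAM*, *KRT14* and *KRT5*, nearly all *KRT14*, at 14.9 to 21.7 and 11.7 to 21.0 CPM. Of the 6 tested markers of other cell types none passed the edgeR test between conditions, and 0 had an unadjusted p under 0.05. With the line fitted as a block 5 of the 8 melanocyte and melanoma markers were called, also *PAX3* (log2FC 0.28), *S100B* (0.26) and *DCT* (-0.89). With the block the fibroblast marker *DCN* was higher without serum, from 1.04 ± 0.790 to 1.94 ± 1.42 CPM (log2FC 0.90, edgeR adjusted p = 0.0125). The part of these markers in the results that follow was not tested.

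Of the 56 members, 19 were higher without serum, 2 were lower, and 33 did not pass the test. The remaining 2, *GLI1* and *KIF17*, did not pass the filter on low counts. With 1 library or 1 line left out, the number called higher ran from 8 to 21, as described near the end. Members from 7 of the 7 groups were among the 19, and the 2 that fell were *CCP110*, a cap of the mother centriole, and *ARL6*, the GTPase that recruits the BBSome. The rises were modest, from 1.24-fold for *KIF7* to 1.96-fold for *PTCH1*, and none reached a log2 fold change of 1. A gene was called when the quasi-likelihood test of edgeR, adjusted by Benjamini-Hochberg over all 17671 tested genes, gave an adjusted p under 0.05. A log2 fold change (log2FC) is serum-free over serum throughout.

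The 19 higher members were 35.2% of the 54 tested, while 11.1% of all tested genes were called higher. The 2 lower members were 3.70%, while 14% of all tested genes were called lower. The median log2FC of the tested members was 0.24, and that of all tested genes was 0.03. The log2FC was positive for 40 of the 54 members and for 53.4% of all tested genes. Over the 54 tested members the level rose in each of the 4 lines for 31 and fell in each for 6. The 31 held all 19 called higher, which were called on these same libraries. The share of all tested genes that rose in each line is not given here. The 4 serum-free libraries all lay above the 4 serum libraries for 20 of the 54 tested members, against 12.6% of all tested genes. These were 16 of the 19 called higher, without *GLI3*, *PTCH1* and *SMO*, and *IFT20*, *IFT22*, *IFT80* and *BBS4*, which were not called. They all lay below for 2 members, *CCP110* and the uncalled *ARL3*, against 15% of all tested genes. No member of IFT-B, IFT-A, the motors, the transition zone group or the Hedgehog group was called lower by edgeR in the fits of all 8 libraries without the GC correction, with or without the block described next, and without the block 0 were at an unadjusted p under 0.05 or by DESeq2. When WT4 or 1 of its libraries was left out of the blocked fit, *WDR35*, *DYNC2H1*, *KIF3B* and *AHI1* were called lower, and *DYNC2H1* also without serum WT4 and without the block.

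**Figure D1:**
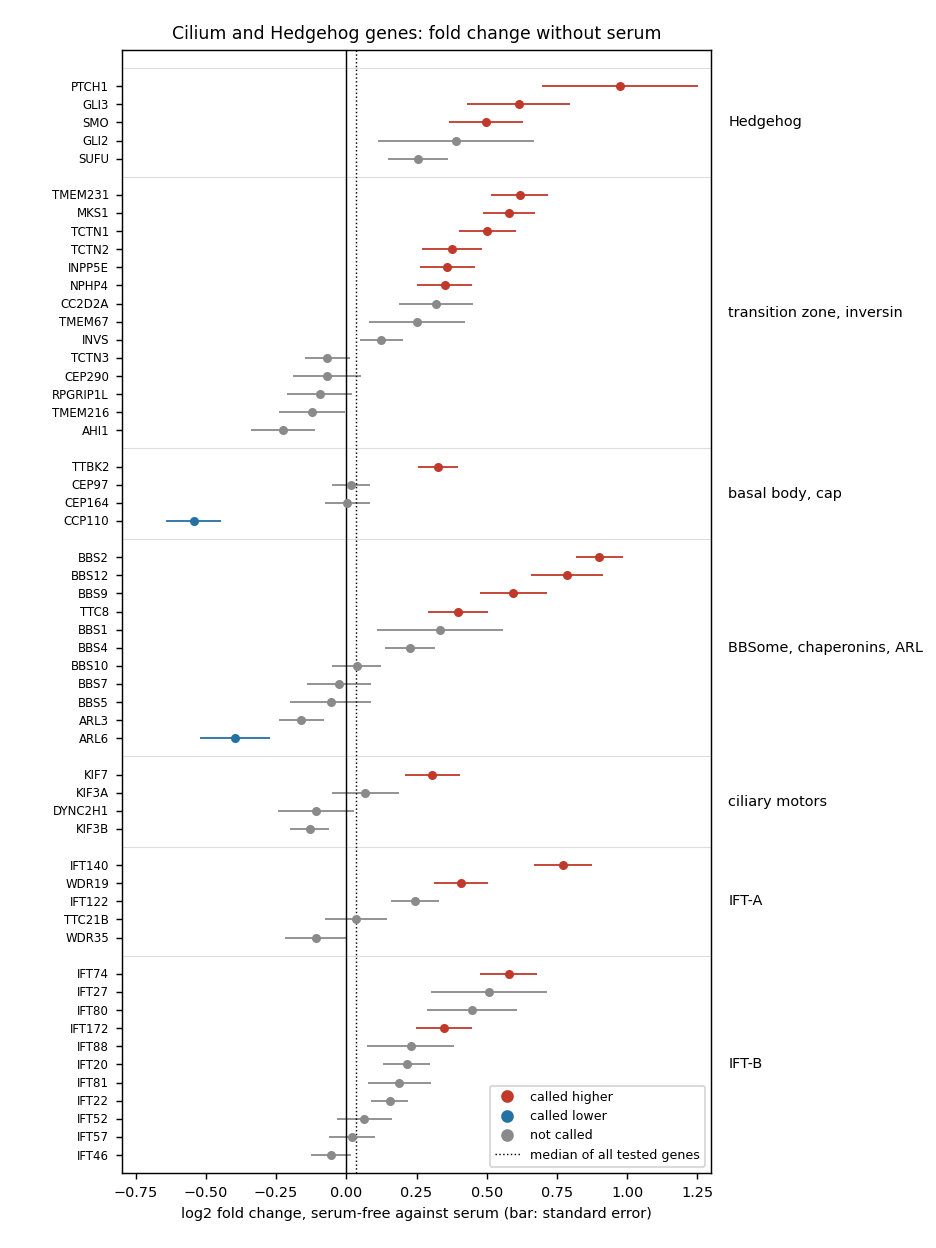
Log2 fold change (serum-free over serum, horizontal axis) of the 54 tested members by group, each with its standard error from edgeR. Red and blue points are the 19 members called higher and the 2 called lower, grey points the 33 not called, and the dotted line is the median of all tested genes at 0.03.

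Each line gave a library in both conditions, and same-numbered libraries deviated together, so the line number was also fitted as a replicate block. With the block 28 members were higher and 2 lower, while 23.2% of all tested genes were called higher and 22.4% lower. All 21 members called without the block were called with it, and the 9 added were *IFT20*, *IFT27*, *IFT80*, *IFT122*, *BBS4*, *TMEM67*, *CC2D2A*, *GLI2* and *SUFU*. Of the 30 blocked calls 22 were kept in all 12 blocked fits that left out 1 library or 1 line. Among the 9 added, *IFT122* was kept in 10 of the 12, *IFT80* in 6, *IFT20*, *BBS4* and *GLI2* in 3 and *TMEM67* in 1. Among the 21 others *ARL6* was kept in 10 and *KIF7* in 9. RNA from a bulk culture cannot tell apart a change in the number of cells of one kind and a change in RNA per cell.

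Intraflagellar transport genes gave 4 of the calls. In IFT-B, which carries cargo outward, 2 of 11 genes were higher and none lower, with a median log2FC of 0.21. Of all tested genes 11.1% were called higher and 14% lower, and the counts by group rest on few genes. In IFT-A, which drives return transport, 2 of 5 were higher and none lower, with a median of 0.25. Over the alternative fits this median moved in 11 and was the same in 24, the least stable of the group medians. *IFT140*, an IFT-A core subunit (ENSG00000187535, chromosome 16 of GRCh38, 1510427 to 1612072), was at 20.7, 20.9, 24.5 and 27.2 CPM in WT1 to WT4 with serum and at 38.7, 36.3, 42.4 and 41.7 CPM without. The 2 sets did not overlap, and the lowest serum-free library stood well above the highest serum library. The mean went from 23.3 ± 3.10 to 39.8 ± 2.82 CPM (SD, n = 4), a log2FC of 0.77 ± 0.10 (standard error, edgeR adjusted p = 0.00171).

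*IFT74*, which binds tubulin together with IFT81 in IFT-B (ENSG00000096872, chromosome 9, 26947110 to 27066134), was at 14.3, 13.9, 17.1 and 14.9 CPM with serum and 21.2, 20.7, 25.5 and 22.5 CPM without. WT3 was the highest line in both conditions, and the conditions did not overlap. Its log2FC was 0.58 ± 0.10 (edgeR adjusted p = 0.00421). The partner *IFT81* was at 23.5 ± 3.81 and 26.8 ± 1.42 CPM and was not called (log2FC 0.19, edgeR adjusted p = 0.246), but with a correction for GC content it was at 0.33 and called higher (edgeR adjusted p = 0.0346). *WDR19*, the IFT144 subunit of IFT-A, was at 23.2, 24.1, 24.7 and 19.2 CPM with serum and 28.5, 29.1, 33.0 and 30.6 CPM without, with a log2FC of 0.41 ± 0.10 (edgeR adjusted p = 0.0137). WT4 was the lowest of the serum libraries, and all 4 serum-free libraries were above them. *IFT172*, a peripheral IFT-B subunit, rose from 30.9 ± 3.0 to 39.3 ± 4.26 CPM (log2FC 0.35, edgeR adjusted p = 0.0288), and was not called with the GC correction (0.28, edgeR adjusted p = 0.0673).

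The other transport subunits were not called. *IFT46* had the lowest log2FC of IFT-B at -0.06, with 39.2, 38.6, 39.3 and 36.4 CPM with serum and 38.5, 34.9, 39.7 and 34.6 CPM without. *WDR35*, the IFT121 subunit, had the lowest of IFT-A at -0.11, with 57.9, 53.7, 65.4 and 45.0 CPM with serum and 50.3, 49.8, 57.4 and 48.6 CPM without. The conditions overlapped for both, and the direction of both depended on scaling: with upper-quartile scaling *IFT46* was at 0.0085, and with a correction for GC content *WDR35* was at 0.051. The 9 IFT-B genes that were not called, *IFT20*, *IFT22*, *IFT27*, *IFT46*, *IFT52*, *IFT57*, *IFT80*, *IFT81* and *IFT88*, ran from -0.06 to 0.51. *IFT27* stood at the top of this range (2.92 ± 0.636 and 4.16 ± 0.705 CPM, edgeR adjusted p = 0.100, or 0.00826 with the block). In IFT-A, *IFT122* was at 24.5 ± 2.10 and 29.1 ± 1.96 CPM (edgeR adjusted p = 0.0633, or 0.00742 with the block) and *TTC21B* at 15.1 ± 1.94 and 15.5 ± 0.802 CPM. Exons of *IFT22*, *IFT80* and *IFT20* overlap those of other genes over 59.0%, 31.0% and 11.2% of their length, and the strand setting of the counts is not given in the sources used here.

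The motors that drive this transport moved little. Kinesin-2 is made of KIF3A and KIF3B with an accessory subunit, and DYNC2H1 is the heavy chain of the returning dynein. *KIF3B* was at 135, 147, 129 and 129 CPM with serum and 119, 130.2, 117 and 128 CPM without, with overlapping conditions and the lowest log2FC of the motors, -0.13 ± 0.07 (edgeR adjusted p = 0.191). With the block and the GC correction together it was called lower, at -0.15 (edgeR adjusted p = 0.00766). Scaled to exon length it was the most abundant member, at 22.1 RPKM (CPM divided by exon length in kilobases) with serum. *KIF3A* was at 46.6 ± 8.42 and 48.9 ± 1.16 CPM and *DYNC2H1* at 90.5 ± 18.4 and 84.1 ± 5.18 CPM, and neither was called. *KIF3A* was called higher with the GC correction, at 0.26 (edgeR adjusted p = 0.0284), and *DYNC2H1* turned from -0.11 to 0.075, not called. *KIF17*, a homodimeric kinesin of ciliary tips, was counted with 4 to 12 reads per library.

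*KIF7* was the 1 motor-like gene called higher. It encodes a kinesin that organizes the ciliary tip for Hedgehog signaling. Its level was 17.6, 15.5, 18.2 and 18.7 CPM with serum and 24.5, 19.7, 21.5 and 21.0 CPM without, so the conditions did not overlap. The log2FC was 0.31 ± 0.10 (edgeR adjusted p = 0.0446), and with the GC correction it was 0.03 and was not called. Its exons overlap *TICRR* over 10.8% of their length.

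The BBSome and its helpers held the largest rises outside Hedgehog signaling. Of 11 genes 4 were higher and 1 was lower, with a median log2FC of 0.23. *BBS2*, a core BBSome subunit (ENSG00000125124, chromosome 16, 56470403 to 56520024), was at 22.3, 20.6, 22.7 and 22.5 CPM with serum and 38.1, 37.8, 43.5 and 45.1 CPM without. The serum libraries were close to one another and all far below the lowest serum-free library. The log2FC of 0.90 ± 0.08 had the smallest p of the members (edgeR adjusted p = 0.000828).

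*BBS12*, a chaperonin-like protein for BBSome assembly, was at 4.64, 3.87, 4.32 and 3.84 CPM with serum and 6.64, 7.12, 7.19 and 7.80 CPM without (log2FC 0.79 ± 0.13, edgeR adjusted p = 0.00317). *BBS9*, another core subunit, was at 7.66, 7.52, 6.73 and 6.30 CPM with serum and 10.1, 11.8, 9.66 and 11.1 CPM without (log2FC 0.59 ± 0.12, edgeR adjusted p = 0.00712). *TTC8*, the BBS8 subunit, was at 18.1, 15.7, 19.7 and 17.6 CPM with serum and 26.9, 20.4, 23.9 and 22.4 CPM without (log2FC 0.40 ± 0.11, edgeR adjusted p = 0.0239). In all 3 genes every serum-free library was above every serum library, most narrowly for *TTC8*, where serum WT3 and serum-free WT2 were close.

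*ARL6* (ENSG00000113966, chromosome 3, 97764521 to 97801242), whose promoter carries the X-box shown above, was at 21.7, 19.1, 20.7 and 14.4 CPM with serum and at 13.9, 14.3, 15.1 and 14.4 CPM without. WT1, WT2 and WT3 were lower without serum, and in WT4 the levels were equal to the digits given, so the conditions overlapped. The log2FC was -0.40 ± 0.12 (edgeR adjusted p = 0.0431), and with the GC correction it was -0.12 and was not called. The 6 genes of this group that were not called, *BBS1*, *BBS4*, *BBS5*, *BBS7*, *BBS10* and *ARL3*, ran from -0.16 for *ARL3* to 0.33 for *BBS1*. *BBS1* was the least abundant tested member, at 0.769 ± 0.0792 and 0.968 ± 0.138 CPM, and its exons overlap other genes over 64.6% of their length. *BBS4* was at 17.0 ± 1.49 and 19.9 ± 1.02 CPM (edgeR adjusted p = 0.0947, or 0.0234 with the block), without overlap between conditions.

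At the base of the cilium 2 genes of opposite roles changed in opposite directions. CP110, the product of *CCP110*, caps the mother centriole together with CEP97, and TTBK2 is the kinase whose recruitment by CEP164 leads to removal of the cap. *CCP110* (ENSG00000103540, chromosome 16, 19523942 to 19553408) was at 132, 128, 137 and 104 CPM with serum and at 90.6, 92.5, 83.6 and 76.8 CPM without. WT4 was the lowest line in both conditions, and its serum library still exceeded all serum-free libraries. The mean fell from 125 ± 14.9 to 85.9 ± 7.14 CPM, a log2FC of -0.54 ± 0.10 (edgeR adjusted p = 0.00469).

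*TTBK2* (ENSG00000128881, chromosome 15, 42738730 to 42921000) was at 23.5, 23.2, 24.5 and 22.6 CPM with serum and at 28.3, 30.1, 28.4 and 30.9 CPM without. The conditions did not overlap, and the log2FC was 0.33 ± 0.07 (edgeR adjusted p = 0.00914). Its exons overlap the antisense gene *TTBK2-AS1* over 18.3% of their length. The partners were not called: *CEP97* was at 55.8 ± 4.09 and 56.4 ± 0.827 CPM, and *CEP164* at 92.2 ± 8.19 and 92.4 ± 5.77 CPM. With the GC correction *CEP97* was called higher, at 0.23 (edgeR adjusted p = 0.0475), and *CEP164* was at -0.09.

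**Figure D2:**
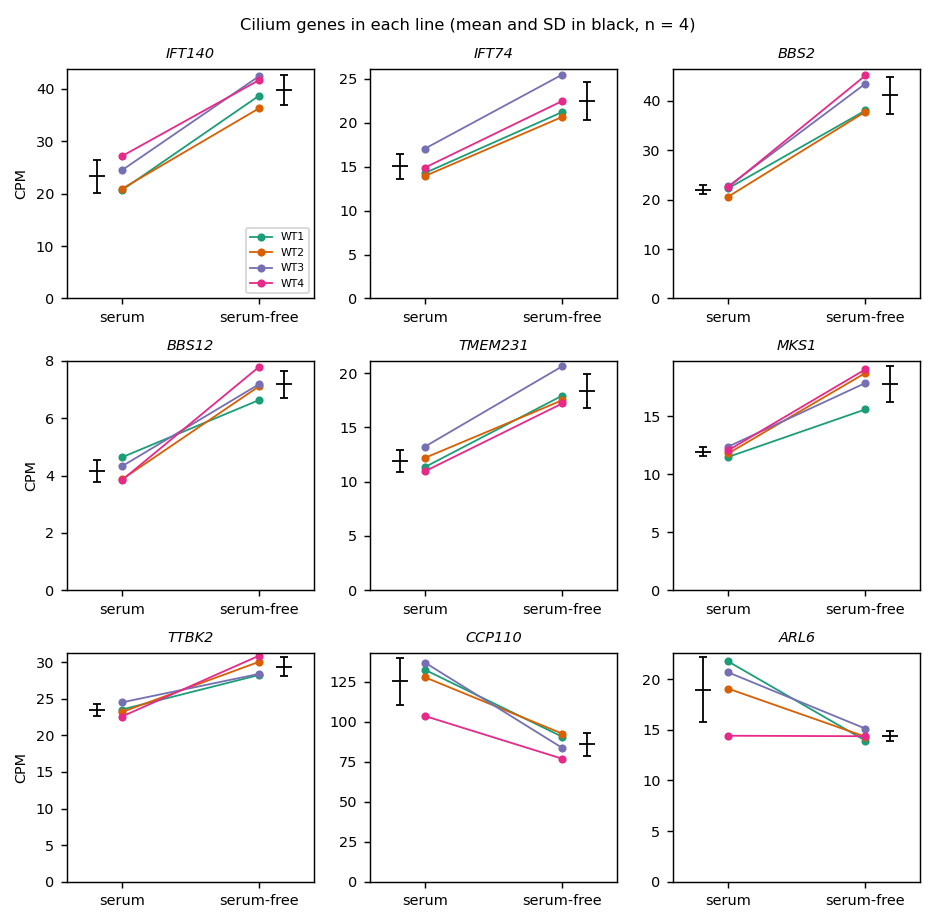
CPM with serum and without serum in each line for 9 ciliary genes, with the mean and SD of 4 libraries in black. Lines rise for the first 7 genes and fall for *CCP110* and *ARL6*, and the WT4 line of *ARL6* is nearly level.

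The transition zone group, the largest, had 6 of 14 genes higher and none lower, while 11.1% of all tested genes were called higher. Its median log2FC was 0.29, or 0.18 with the GC correction. With the block and the correction together 7 of its genes were higher, against 8 of IFT-B. The 6 called without either encode proteins of the tectonic and MKS modules, a nephrocystin and a phosphatase. *TMEM231*, a membrane protein of the MKS module (ENSG00000205084, chromosome 16, 75536741 to 75556286), was at 11.3, 12.2, 13.2 and 10.95 CPM with serum and 17.9, 17.5, 20.6 and 17.2 CPM without (log2FC 0.62 ± 0.10, edgeR adjusted p = 0.00319). *MKS1* was at 11.5, 11.8, 12.4 and 12.0 CPM with serum and 15.6, 18.7, 17.9 and 19.0 CPM without (log2FC 0.58 ± 0.09, edgeR adjusted p = 0.00301). For both, the 4 serum libraries were close together and all below the serum-free ones.

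The tectonics are a family of 3 membrane-linked proteins, and they did not move alike. *TCTN1* was at 18.4, 16.4, 17.4 and 14.5 CPM with serum and 21.9, 22.3, 26.4 and 24.0 CPM without (log2FC 0.50 ± 0.10, edgeR adjusted p = 0.00708). *TCTN2* rose from 14.5 ± 1.47 to 18.8 ± 1.73 CPM (log2FC 0.38 ± 0.11, edgeR adjusted p = 0.0280). *TCTN3* was at 40.1 ± 3.12 and 38.2 ± 2.37 CPM (log2FC -0.07 ± 0.08, edgeR adjusted p = 0.573). The difference between family members was not tested. *INPP5E*, the phosphatase that sets the lipid make-up of the ciliary membrane, was at 24.4, 30.1, 25.0 and 31.6 CPM with serum and 34.1, 37.5, 33.9 and 36.9 CPM without (log2FC 0.36 ± 0.10, edgeR adjusted p = 0.0244). *NPHP4* was at 24.6, 28.7, 30.1 and 30.6 CPM with serum and 34.7, 32.1, 39.7 and 38.9 CPM without (log2FC 0.35 ± 0.10, edgeR adjusted p = 0.0267). Neither gene overlapped between conditions, and neither was called with the GC correction, at log2FC of 0.13 and 0.15.

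The 8 transition zone genes not called were *CEP290*, *RPGRIP1L*, *TMEM67*, *TMEM216*, *CC2D2A*, *TCTN3*, *AHI1* and *INVS*. *AHI1* had the lowest log2FC, -0.23 ± 0.12, with 17.5, 17.7, 22.1 and 16.7 CPM with serum and 16.0, 13.7, 16.5 and 17.2 CPM without (edgeR adjusted p = 0.179). Its level was lower without serum in WT1, WT2 and WT3 and higher in WT4. *CC2D2A* had the highest, 0.32 ± 0.13, with 25.2 ± 3.23 and 31.4 ± 4.95 CPM (edgeR adjusted p = 0.107, or 0.00466 with the block). *CEP290*, the large linker between microtubules and membrane, was at 35.1 ± 5.59 and 33.5 ± 2.83 CPM. Its log2FC of -0.07 turned with the GC correction to 0.20, which was called higher (edgeR adjusted p = 0.0342).

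Hedgehog signaling gave the highest group median without the GC correction, 0.50, with 3 of 5 tested genes higher and none lower. With the correction the median was 0.26, under the 0.30 of IFT-B. *PTCH1*, the receptor (ENSG00000185920, chromosome 9, 95442980 to 95516971), was at 30.1, 29.0, 46.9 and 52.4 CPM in WT1 to WT4 with serum and at 66.9, 50.3, 90.1 and 103 CPM without. WT3 and WT4 were above WT1 and WT2 in both conditions, and serum WT4 lay just above serum-free WT2, so the conditions overlapped. Within each line the log2 ratio was 1.15, 0.79, 0.94 and 0.98. The log2FC was 0.97 ± 0.28 (edgeR adjusted p = 0.0368), and with the block 0.96 ± 0.07 (edgeR adjusted p = 1.2e-07). Without the block the call was lost when serum WT1, WT2 or WT3, serum-free WT1, WT3 or WT4, or the whole line WT1, WT3 or WT4 was left out, at adjusted p of 0.0604 to 0.142.

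*SMO*, the transducer that PTCH1 restrains (ENSG00000128602, chromosome 7, 129188633 to 129213545), was at 22.6, 24.8, 33.6 and 26.9 CPM with serum and 36.2, 38.9, 43.95 and 33.3 CPM without. It rose in each line, and serum WT3 was above serum-free WT4. The log2FC was 0.50 ± 0.13 (edgeR adjusted p = 0.0215), and the call was lost without serum WT1, serum WT2, serum-free WT3 or the whole line WT1 or WT2 (adjusted p of 0.0593 to 0.111). With the GC correction it was 0.26 and was not called without the block, and 0.27 and called with it (edgeR adjusted p = 0.00173). *SUFU*, which holds GLI proteins back (chromosome 10, 102502819 to 102633535), was at 40.9, 45.9, 44.8 and 54.6 CPM with serum and 48.2, 55.8, 54.7 and 63.4 CPM without. It rose in each line by a similar log2 ratio, 0.22 to 0.29, but serum WT4 lay among the serum-free libraries. It was not called without the block (log2FC 0.26 ± 0.11, edgeR adjusted p = 0.109) and was called with it (edgeR adjusted p = 0.00217). With the block and the GC correction together it was at 0.099 and not called (edgeR adjusted p = 0.0978).

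Of the GLI transcription factors, *GLI3*, which mostly forms the repressor, was the 1 called higher. It was at 33.2, 23.5, 41.3 and 37.5 CPM with serum and 53.2, 39.1, 55.9 and 58.9 CPM without. WT2 was lowest in both conditions, and its serum-free library lay among the serum libraries. The log2FC was 0.61 ± 0.18 (edgeR adjusted p = 0.0386), and with the block 0.63 (edgeR adjusted p = 4.29e-06). With the GC correction and no block it was 0.54 and not called (edgeR adjusted p = 0.0617). Without the block the call was lost when any library but serum WT3 or serum-free WT2, or any line but WT2, was left out, at adjusted p of 0.0527 to 0.180. *GLI2*, the main activator, was at 16.0, 12.6, 22.5 and 17.4 CPM with serum and 24.6, 17.5, 33.4 and 14.4 CPM without. It was higher without serum in WT1, WT2 and WT3 and lower in WT4. It was not called without the block (log2FC 0.39 ± 0.28, edgeR adjusted p = 0.340). With the block its adjusted p was 0.0314. That call was kept in the 3 fits without WT4 or 1 of its libraries, at 9.02e-07 without the line, and lost in the 9 others. With the block and the GC correction together *GLI2* was at 0.12 and not called (edgeR adjusted p = 0.345).

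*GLI1*, both a GLI factor and a widely used readout of the pathway, was counted with 4 to 25 reads per library. Its level was 0.106, 0.137, 0.444 and 0.176 CPM with serum and 0.190, 0.209, 0.360 and 0.444 CPM without. The conditions overlapped. *GLI1* was under the filter on low counts, and in the fit with no filter its log2FC was 0.46 ± 0.55 (edgeR adjusted p = 0.626). Scaled to exon length, *GLI1* was at 0.0473 RPKM with serum, against 2.22 RPKM for *GLI2*, 2.45 for *GLI3* and 2.29 for *PTCH1*.

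**Figure D3:**
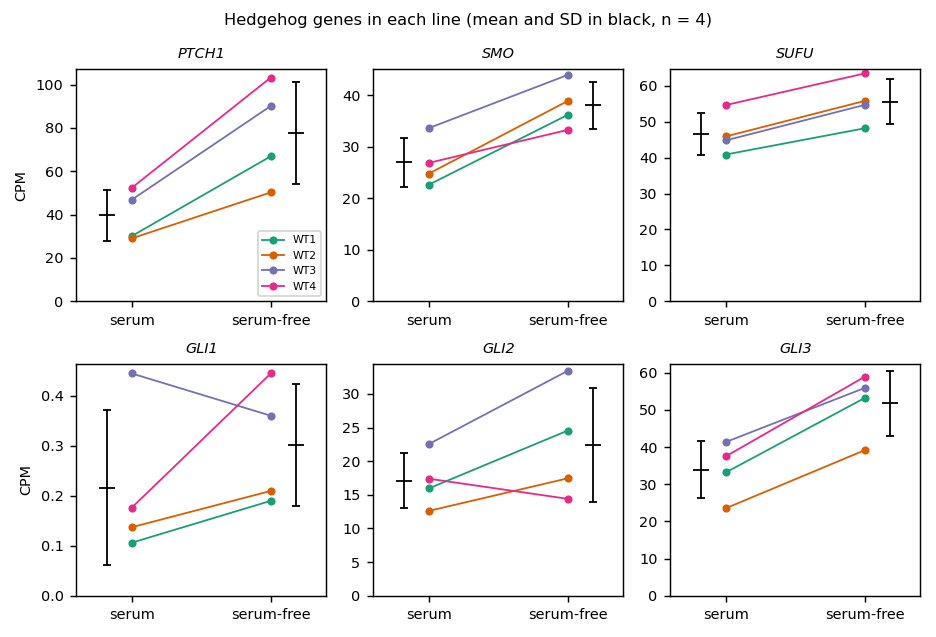
CPM with serum and without serum in each line for the 6 Hedgehog genes, with the mean and SD of 4 libraries in black. *PTCH1*, *SMO*, *SUFU* and *GLI3* rise in each line, *GLI2* falls in WT4, and *GLI1* stays under 0.5 CPM.

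Differences between the lines were tested over the 3 line terms of a fit with condition and line. Of the 54 members 10 differed between lines, or 18.5%, while 22.9% of all tested genes did. The 10 were the 5 tested Hedgehog genes and 5 of the 49 tested ciliary genes, *WDR35*, *DYNC2H1*, *CCP110*, *TMEM67* and *CC2D2A*. The smallest adjusted p was that of *PTCH1* (edgeR 8.45e-06), followed by *GLI3* (0.000347), *GLI2* (0.00686), *SUFU* (0.0127) and *SMO* (0.0301). *PTCH1* stayed under the threshold in 12 of 12 fits without 1 library or 1 line, *GLI3* in 11, *GLI2* in 10, *SUFU* in 7 and *SMO* in 5. *TMEM67* was at 8.91 CPM in serum WT4 against 13.7 to 16.1 CPM in the other serum libraries, and at 14.5 to 17.7 CPM without serum. Among the ciliary genes each of the 5 line calls was lost in 7 or more of the 12 fits.

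**Figure D4:**
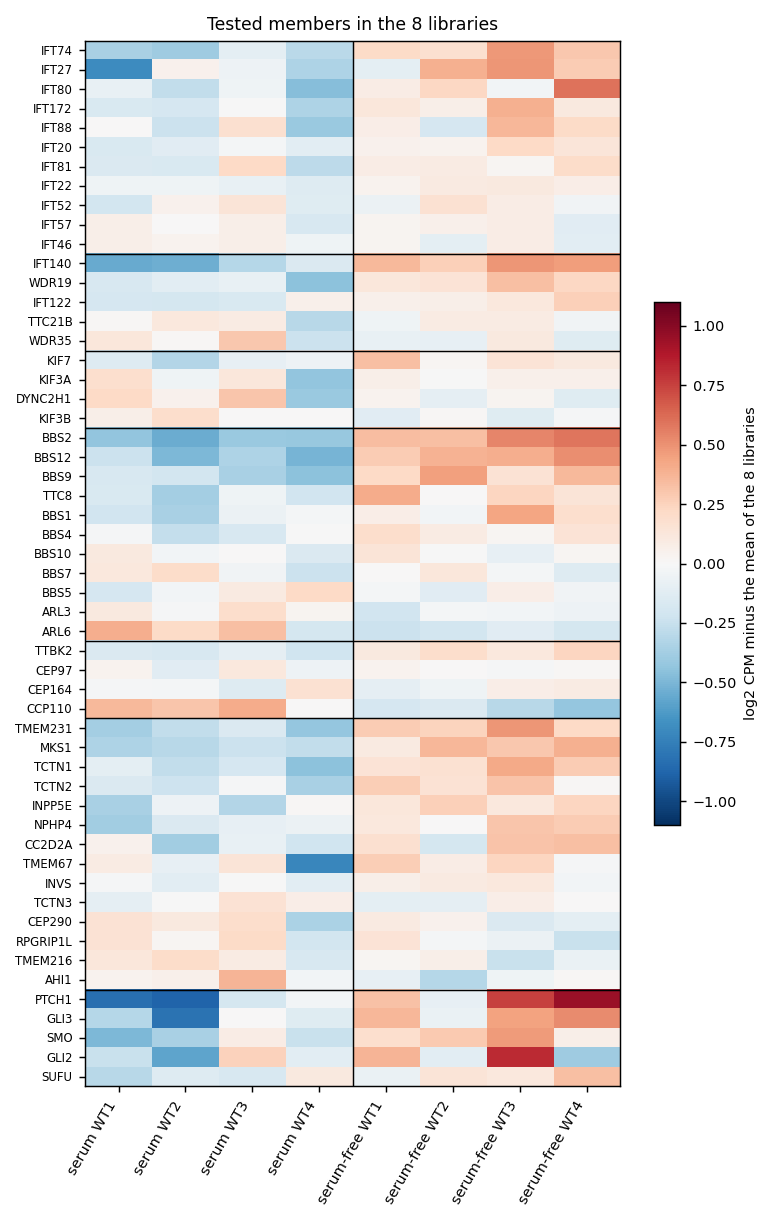
Log2 CPM of the 54 tested members in the 8 libraries, each minus the gene's mean over the 8, as a colour from blue (below the mean) to red (above). Most rows called higher turn from blue in the 4 serum columns to red in the 4 serum-free columns, while the Hedgehog rows at the bottom also differ between lines.

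The fold change rose with GC content over all genes. Spearman's correlation between log2FC and the GC content of the longest transcript was 0.358 over 17425 genes, which are not independent, and 0.308 over the 54 members. The median log2FC went from -0.22 in the lowest of 10 equal bins of GC content (median 36.6%) to 0.28 in the highest (63.7%). Of the 54 members 35 were below the median GC of the tested genes, while the Hedgehog group had a median of 56.7%. With the GC correction 21 members were higher and 1 was lower, while 10.5% of all tested genes were called higher and 16.6% lower. Of the 19 higher members 13 were among these 21, without *IFT172*, *KIF7*, *NPHP4*, *INPP5E*, *GLI3* and *SMO*, and the 8 gained were *IFT20*, *IFT80*, *IFT81*, *KIF3A*, *BBS10*, *CEP97*, *CEP290* and *TMEM67*. With the correction and the block together 31 were higher and 3 lower, while 21.7% of all tested genes were higher and 24.5% lower. The 31 held 16 of the 19 higher members, without *KIF7*, *NPHP4* and *INPP5E*, and the 3 were *CCP110*, *KIF3B* and *ARL3*. What produced the relation to GC was not tested.

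**Figure D5:**
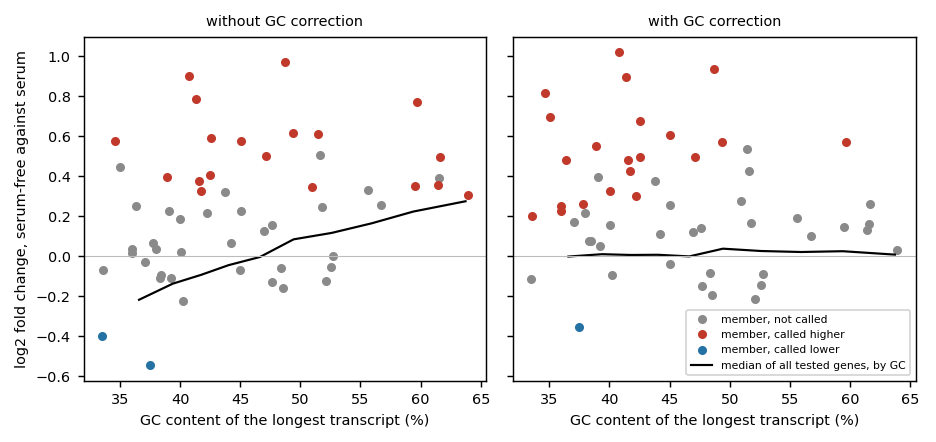
Log2 fold change (vertical axis) against GC content in percent (horizontal axis) for the 54 tested members, without and with the GC correction. The black line joins the medians of 10 equal bins of all tested genes, which climb from -0.22 to 0.28 in the left panel and lie near 0 in the right one, where 21 members are called higher and 1 lower.

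A further 118 genes of the same processes, from lists drawn up by role, were read from the same fit. Of the 100 tested, 13 were higher and 14 lower, with a median log2FC of 0.08. These shares are near the 11.1% and 14% of all tested genes, so the counts by list that follow are descriptions of the named genes. With the block 31 were higher and 27 lower, and with the block and the GC correction 30 and 23. Counts by list are from the fit with neither, unless said. Among 13 other subunits of transport complexes and motors 5 were higher, namely *TTC30A*, *TTC30B*, *WDR60*, *KIFAP3* and *TULP3*, and *HSPB11* was lower. *TTC30A*, an IFT-B subunit also called IFT70A, rose from 8.53 ± 0.391 to 13.2 ± 1.23 CPM (log2FC 0.63 ± 0.10, edgeR adjusted p = 0.00349). *TULP3*, the adaptor through which IFT-A brings receptors into the cilium, rose from 39.8 ± 1.90 to 50.2 ± 1.52 CPM (log2FC 0.34 ± 0.06, edgeR adjusted p = 0.00553). *HSPB11*, the IFT25 subunit, fell from 27.4 ± 1.59 to 19.5 ± 1.46 CPM (log2FC -0.49 ± 0.08, edgeR adjusted p = 0.00398).

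Among 12 other BBSome and trafficking genes 4 were lower, among them *RAB8A*, *RAB11A* and *RAB23*. None was higher in that fit, against 1 at an unadjusted p under 0.05 and 1 by DESeq2. With the block 1 was higher, *LZTFL1*, and 5 were lower, and with the GC correction added 2 and 4. *RAB8A*, a GTPase that brings vesicles to the growing ciliary membrane, fell from 51.2 ± 1.4 to 37.9 ± 1.21 CPM (log2FC -0.43 ± 0.06, edgeR adjusted p = 0.00184), though its exons overlap other genes over 43.9% of their length. *RAB11A*, which acts before it, fell from 119 ± 7.87 to 94.7 ± 4.26 CPM (log2FC -0.33 ± 0.07, edgeR adjusted p = 0.00840). *RAB11A* was at -0.13 and *RAB23* at -0.34 with the GC correction alone, and neither was then called (edgeR adjusted p of 0.0973 and 0.0709), and exons of *RAB23* overlap other genes over 57.8% of their length. Of 21 other genes of the transition zone, distal appendages and satellites *NEK8* was the 1 called higher and *TMEM138* the 1 called lower, with log2FC of 0.78 and -0.46. In this list 3 were higher and 3 lower by DESeq2, 5 and 5 with the block, and 6 and 1 with the GC correction added.

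Of 11 tested genes linked to cilium disassembly 1 was higher and 4 were lower. With the block 1 was higher and 7 were lower, and with the GC correction added 1 and 9. *AURKA*, the kinase that starts disassembly, fell from 187 ± 22.9 to 145 ± 13.7 CPM (log2FC -0.37 ± 0.10, edgeR adjusted p = 0.0245), and *KIF2A* fell by 0.38 on the log2 scale. *TCHP*, also called lower, had a log2FC of -0.24. *HDAC6*, the tubulin deacetylase that AURKA activates, rose from 21.3 ± 1.46 to 30.6 ± 3.10 CPM (log2FC 0.52 ± 0.09, edgeR adjusted p = 0.00457). Of the 7 tested transcription factors of the RFX and multiciliation list none was called with edgeR or DESeq2 without the block, though 3 had an unadjusted p under 0.05, and 3 were called with the block, *RFX1*, *RFX2* and *RFX3*. *RFX1* and *RFX2* were not called with the GC correction added (edgeR adjusted p of 0.257 and 0.293). *FOXJ1*, the master factor of motile cilia, stayed at or under 0.210 CPM.

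Around the Hedgehog receptor, the ligands were barely detected: *SHH* reached at most 0.0178 CPM, *IHH* 0.205 CPM and *DHH* 0.817 CPM in any library. Of the 3 co-receptors listed 1 was higher, 1 lower and 1 not called. *BOC* rose from 1.34 ± 0.489 to 3.45 ± 1.16 CPM (log2FC 1.37 ± 0.32, edgeR adjusted p = 0.0128) and *CDON* fell from 60.3 ± 3.68 to 50.3 ± 1.41 CPM (log2FC -0.26 ± 0.06, edgeR adjusted p = 0.0169). *GAS1* was at 4.26 ± 2.37 and 8.78 ± 2.94 CPM (log2FC 1.05 ± 0.38, edgeR adjusted p = 0.0722, or 1.26e-05 with the block). Of the 8 tested ligands, receptors and co-receptors 3 were higher and 1 lower by DESeq2, and 4 and 2 with the block, with or without the GC correction. *GPR161*, a ciliary receptor that restrains the pathway, rose from 37.9 ± 1.92 to 55.8 ± 2.61 CPM (log2FC 0.56 ± 0.07, edgeR adjusted p = 0.00116). *EVC*, which links SMO to the GLI factors, rose by 0.31 (edgeR adjusted p = 0.0140), and *PKD1*, a ciliary membrane protein, by 0.40 (edgeR adjusted p = 0.0220), while *ADCY3* was lower by 0.36 on the log2 scale, a log2FC of -0.36. *EVC* was at 0.14 and *PKD1* at 0.085 with the GC correction, and neither was then called (edgeR adjusted p of 0.0707 and 0.291). Of 13 kinases and regulators *CUL3* and *KCTD5* were lower at -0.33 and -0.31, and *CUL3* was not called with the GC correction (-0.15, edgeR adjusted p = 0.0537). None was higher without the block and the correction. At an unadjusted p under 0.05, and also by DESeq2, 1 was higher and 5 were lower, and with the block 3 and 5, or 2 and 4 with the GC correction added. Of 7 tested target genes outside the members none was called without the block by edgeR or DESeq2, and 1 had an unadjusted p under 0.05. With the block 1 was higher and 1 lower, and with the GC correction added 1 and 0.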

How the data were processed

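RNA was measured in 8 libraries of 4 wild-type A375 lines, 4 with serum and 4 without, grouped by their labels. The authors deposited raw counts, whole numbers of reads per Ensembl gene, 1 file per library and not normalized. The submitters' processing notes name cutadapt, TopHat2 2.0.11, HTSeq and GRCh38, without saying what each did. The annotation release and strand setting are not given in the sources used here. The 5 HTSeq summary rows were left out of library sizes, and held 8.23% to 11.5% of each file's total as ambiguous, 5.73% to 22.7% as aligned to several places, and 0 as without a feature. Overlapping genes are therefore uncertain.

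Members, lists, promoter motifs and alternatives were chosen with earlier results of these data known. A symbol was found for 55604 of 58051 Ensembl identifiers. Positions and promoters are from RefSeq (GRCh38.p14), and exon length, overlap and GC content from GENCODE on the older build GRCh37. The processing notes of the counts name GRCh38, while the study's methods name hg19, the other name of GRCh37. After filterByExpr and TMM scaling, edgeR 4.0.16 (R 4.3.3) was run as glmQLFit, robust, and glmQLFTest on condition alone, and p was adjusted by Benjamini-Hochberg over 17671 genes with a threshold of 0.05. Standard errors were taken from the log2FC and its F. The GC correction was a loess of log2 CPM on GC content per library (span 0.5), used as an offset.

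Every member was accounted for. Values per library were given for the 6 Hedgehog genes, the 15 called members with the smallest p and the members with the largest and smallest log2FC of each group, and at most 3 called genes of each further list were to be given with values. Other further genes named, among them the Hedgehog ligands, *FOXJ1* and *TCHP*, were named after their values were seen. A few genes of the further lists and markers are counted with their list but not reported here by name.

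The line number pairs the libraries, since both come from the same line. The correlation of deviations from the condition means was 0.403, 0.591, 0.456 and 0.604 for the same line and at most 0.126 between lines. Alternatives were the block, the GC correction, DESeq2 1.42.0, limma's voom 3.58.1, RLE and upper-quartile scaling, other filters, protein-coding genes only, and each library or line left out.

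The test was checked on simulated counts of 17433 genes, of which 190 changed genes were tested. It recovered 73.2% of them and made 0 false calls without the block, and recovered 95.8% and made 7 false calls when the block was fitted. Each changed gene was simulated with a log2FC larger in size than that of any member, and far fewer genes were changed than were called in the data. These rates therefore do not describe changes as small as those of the members.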

Additional observations from a re-analysis of the deposited data

Results flagged for a closer look

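Within a condition, 3 values stood apart from the other 3 libraries by Dixon's test at 95%, among 112 searches over the 56 members and both conditions, where chance gives about 1 in 20, or 5.6. *IFT172* was at 45.7 CPM in serum-free WT3, with the other serum-free libraries at 36.4 to 37.8 CPM. *IFT122* was at 27.7 CPM in serum WT4, with the others at 23.3 to 23.7 CPM. *KIF3A* was at 47.1 CPM in serum-free WT2, with the others at 49.4 to 49.5 CPM.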

How the results depend on the processing

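The number of members called higher was 19. It was 28 with the replicate block, 21 with the GC correction, 21 with DESeq2, 20 with limma's voom, 18 with RLE and 24 with upper-quartile scaling, 16 with no filter, 20 with at least 10 counts in every library and 21 over protein-coding genes. With the block and the GC correction together it was 31. Shares of all tested genes are given above for the block, the GC correction and both together. The counts with other methods, scaling or filters, and with 1 library or line left out, are given without such a share. The number called lower was 2, and it was 1 with the GC correction, with upper-quartile scaling and over protein-coding genes. The log2FC of *IFT46* turned to 0.0085, that of *BBS5* to 0.0090 and that of *BBS7* to 0.037 with upper-quartile scaling. With the GC correction 6 turned, *WDR35* to 0.051 (0.052 with the block added), *DYNC2H1* and *RPGRIP1L* to 0.075, *BBS7* to 0.17, *CEP290* to 0.20 and *CEP164* to -0.09. *CEP164*, at 0.0035, also turned with DESeq2, RLE scaling and no filter. The block ended no call of a member.

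Leaving out 1 library or 1 line gave 8 to 21 members higher and 1 to 3 lower, and with the block 23 to 26 and 1 to 7. The fewest were without line WT1, with 8, and 10 or 11 remained without line WT2 or WT3 or without the library of serum WT1, serum WT2, serum-free WT1 or serum-free WT3. The higher 8 called in all 12 of these fits were *IFT74*, *IFT140*, *BBS2*, *BBS9*, *BBS12*, *TMEM231*, *MKS1* and *TCTN1*, with *CCP110* the 1 lower. *ARL6* was lost without any library but serum WT4 (adjusted p up to 0.121), and *KIF7* without any but serum WT4 and serum-free WT2 (up to 0.135). Serum WT1, serum WT2, serum-free WT1 and serum-free WT3 each ended the calls of *IFT172* (up to 0.0729), *TTC8* (up to 0.0717) and *TCTN2* (up to 0.0749, and lost without serum-free WT2 too). *NPHP4* was lost without these 4 or serum-free WT4 (up to 0.0842) and *INPP5E* without any library but serum WT2 and serum WT4 (up to 0.0739). *WDR19* and *TTBK2* were lost only when a whole line was left out. Members differing between lines numbered 3 to 26, the most without serum-free WT4.

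Without the serum libraries of WT1 and WT2, which hold the most reads aligned to several places, and which were left out after seeing the data, 6 members were higher, while 2.00% of all genes were. They were *BBS2*, *BBS9*, *BBS12*, *IFT140*, *TCTN1* and *TMEM231*. With edgeR 0 members and 3.88% of all genes were then lower, against 1 member at an unadjusted p under 0.05, and 15 were higher at that level. *CCP110* was at -0.49 (edgeR adjusted p = 0.0612). All 21 called members kept their direction. The cause of these changes was not tested, and this fit also held fewer libraries. Of the further genes named as called, *TTC30A*, *HSPB11*, *RAB8A*, *TMEM138*, *HDAC6*, *GPR161*, *ADCY3* and *KCTD5* were called in all 12 fits without 1 library or line, and each other in fewer. *GLI1* and *KIF17* were under the filter, and neither was called with no filter (edgeR adjusted p of 0.626 and 0.897).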

Other observations

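Of 10 genes of motile cilia, 5 were near the detection limit and 5 lay above it. No read was counted for *DNAI2* or *TEKT1* in any library, and *SPAG6*, *RSPH1* and *DNAI1* stayed at or under 0.213 CPM. *CCDC40*, an assembly factor of the motile axoneme, was at 2.37 ± 0.724 CPM with serum and 4.25 ± 0.410 CPM without (log2FC 0.84 ± 0.22, edgeR adjusted p = 0.0208). *DNAAF1*, a factor for preassembly of dynein arms, was at 1.29 ± 0.168 and 2.05 ± 0.411 CPM (log2FC 0.67 ± 0.21, edgeR adjusted p = 0.0446). Neither was called with the GC correction (edgeR adjusted p of 0.0611 and 0.0509). *DNAH9*, an outer arm dynein heavy chain, was at 14.2 ± 8.14 and 22.9 ± 12.8 CPM, with large differences between lines (edgeR adjusted p = 2.45e-07 over the line terms, and 0.336 between conditions without the block, or 1.26e-05 with it). *DNAH5* and *ZMYND10*, at 0.959 to 4.07 and 0.396 to 1.23 CPM, were not called.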
